A study of Mus musculus with 6 samples.

Results

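The melanocortin system was examined in mouse heart through its 5 receptors (Mc1r, Mc2r, Mc3r, Mc4r and Mc5r), the peptide precursor Pomc, the antagonists Agrp and Asip, and the accessory proteins Mrap and Mrap2. These 10 genes were taken by name from the 54532 genes of the deposited expression table. For 9 of them the symbol was the same, and Asip was found by its gene identifier, because the table lists it under the older symbol a (nonagouti). RNA sequencing was performed on the hearts of 3 Mc4r KO mice and 3 WT mice, 1 library per mouse. All mice were 12 weeks old, were kept on a C57B/6/N background with standard chow, and no treatment is named for either group. The Mc4r KO mice were homozygous for the knockout allele and came from heterozygous matings, as did their WT littermates. No restriction of the knockout to the heart is named, and how the allele was made is not given in the sources used here.

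Melanocortins are peptides cut from the POMC precursor. They act on receptors coupled to the stimulatory G protein, which raises cAMP in the cell, and the agouti proteins oppose them at the receptor. MC1R sets coat colour, MC2R is the ACTH receptor of the adrenal cortex, MC3R and MC4R act in hypothalamic energy balance, and MC5R is known from exocrine glands. MRAP is a small membrane protein that MC2R needs to reach the cell surface, and MRAP2, its relative, acts with MC4R.

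Reads counted on genes were 14691076 to 16047003 per library. Cardiomyocyte markers were present in all libraries. The summed level of 8 of them was 14254 to 15331 FPKM in WT and 17233 to 18824 FPKM in Mc4r KO hearts. FPKM are here the counted fragments relative to gene length and to a factor for each library. That factor did not simply follow the reads. In WT replicate 1 (14767929 reads) 1 read per kilobase was 0.0709 FPKM, and in KO replicate 1 (14691076 reads) it was 0.0644 FPKM. The share of FPKM on mitochondrial genes was 59.3%, 57.4% and 47.1% in WT replicates 1, 2 and 3 and 43.0% to 46.6% in KO. WT replicate 3 stood apart by its atrial genes. The atrial light chain Myl7 was 307 FPKM there against 0.240 and 28.1 FPKM in the other WT libraries and 0.528 to 38.8 FPKM in KO. The values of the melanocortin genes are given below for every library, so that this library can be followed.

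Of the 10 genes, 2 were detected in heart, Mrap and Pomc. A gene was taken as detected when at least 3 reads were counted in at least 3 of the 6 libraries. By the same rule 17401 of the 54532 genes (31.9%) and 14155 of 22046 protein-coding genes (64.2%) were detected. Mrap held 732 of the 775 reads of the 10 genes, the ligand precursor and antagonists together 38, and the 5 receptors together 5.

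**Figure D1:**
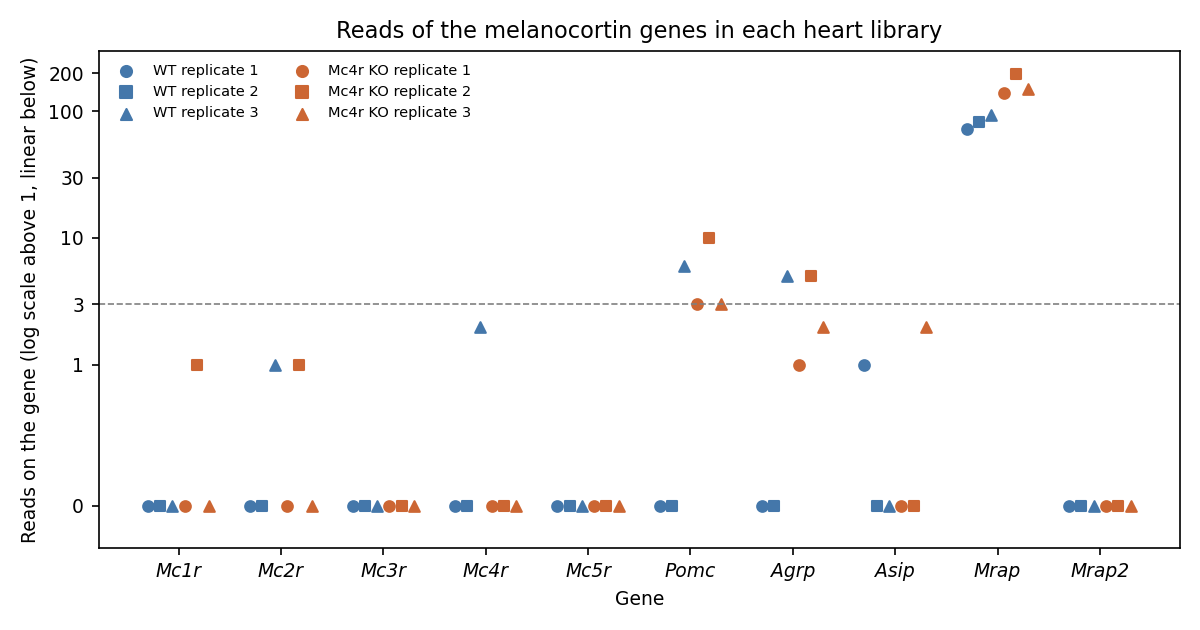
Reads counted on each of the 10 melanocortin genes (x axis) in each heart library (y axis, log scale above 1 and linear below, blue for WT and orange for Mc4r KO, 1 marker shape per replicate number). The dashed line is the limit of 3 reads. Mrap lies between 72 and 196 reads in the 6 libraries, while no other gene passes 10 reads.

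Mc4r itself (ENSMUSG00000047259, GRCm38 chromosome 18, 66857715 to 66860472, minus strand) was read first, since it is the targeted gene. In WT replicate 3 it was read 2 times, and 0 times in WT replicates 1 and 2 and in all 3 KO libraries. A count of 0 allows up to 3 reads, which corresponds to 0.0639 to 0.0771 FPKM for this gene, so all 6 libraries lie under this limit. The genotype of the libraries could therefore not be checked from Mc4r, and no fold was computed. Such limits cover counting error only.

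The other receptors were not detected either. Mc1r, the receptor of melanocytes, had 1 read in all, in KO replicate 2. Mc2r had 1 read in WT replicate 3 and 1 in KO replicate 2. Mc3r and Mc5r had 0 reads in all 6 libraries. The limit of 3 reads corresponded to 0.0484 to 0.0585 FPKM for Mc1r, 0.113 to 0.136 FPKM for Mc2r, 0.0672 to 0.0811 FPKM for Mc3r and 0.152 to 0.183 FPKM for Mc5r. For Mc5r the deposited table counts over 1162 bases, while the GENCODE M21 model has 3904 exonic bases, so the count covers only a part of that model. Differences between genotypes in any receptor were not detectable at this depth.

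Of the genes that encode the ligands and antagonists, Pomc alone passed the detection rule, at a level close to its limit. Pomc (ENSMUSG00000020660, chromosome 12, 3954951 to 3960642, plus strand) had 0, 0 and 6 reads in WT replicates 1, 2 and 3 and 3, 10 and 3 reads in KO replicates 1, 2 and 3. In FPKM these were 0, 0 and 0.267 in WT and 0.147, 0.499 and 0.142 in KO. The groups overlapped, and the WT reads were all in replicate 3, the library with the high atrial genes. The log2 fold change, which throughout is KO over WT on the log2(FPKM + 0.1) scale, was 1.09 with a standard error of 0.68 and a 95% interval of -0.50 to 2.69 (limma, adjusted p = 0.407). The exact permutation test of the 3 against 3 values gave p = 0.3, two-sided. Because 2 WT libraries are at 0, this fold depends on the pseudocount, and it was 0.21 with a pseudocount of 1 and 2.92 with 0.01.

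The antagonists had fewer reads than Pomc in all, 13 for Agrp and 3 for Asip against 22. In WT, however, the mean of Agrp (0.0966 FPKM) was not below that of Pomc (0.0891 FPKM). Agrp, the hypothalamic antagonist of MC3R and MC4R, had 0, 0 and 5 reads in WT replicates 1, 2 and 3 and 1, 5 and 2 reads in KO replicates 1, 2 and 3. Its mean passed the filter of 0.1 FPKM only through KO (0.171 FPKM), as did that of Pomc (0.263 FPKM in KO). Both WT means lay under the filter, so the filter favoured a positive fold for both genes. For Agrp the difference was 0.66 with a standard error of 0.70 and an interval of -0.99 to 2.32 (limma, adjusted p = 0.625). With a pseudocount of 1 it was 0.10, and with 0.01 it was 2.26. As for Pomc, the groups overlapped and WT replicate 3 held all WT reads. Asip, the skin antagonist of MC1R, had 1 read in WT replicate 1 and 2 reads in KO replicate 3. Where the reads lie within a gene is not known from values per gene, and some exons overlap those of other genes. Of the Agrp exons 11.25% lie over exons of Ctcf or Gm5914, and 12.57% of the Asip exons over Raly on the same strand. For Mc1r, 17.95% of the exonic bases are shared with Gm38092 on the opposite strand. Whether the counting used strand is not given in the sources used here.

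Mrap was the one melanocortin gene with a clear level in heart, and its relative Mrap2 had 0 reads in all 6 libraries. Mrap (ENSMUSG00000039956, chromosome 16, 90738207 to 90749785, plus strand) overlaps no exon of another gene and shares no run of 50 bases with another gene's transcripts. The start of its coding sequence is set beside that of Mrap2 to show how far reads of both genes can be told apart. The letters come from the GENCODE M21 coding transcripts of Mrap (coding bases 1 to 300) and Mrap2 (coding bases 39 to 328), on GRCm38, 5′ to 3′, and capitals mark bases that are identical in the alignment of both.
Mrap: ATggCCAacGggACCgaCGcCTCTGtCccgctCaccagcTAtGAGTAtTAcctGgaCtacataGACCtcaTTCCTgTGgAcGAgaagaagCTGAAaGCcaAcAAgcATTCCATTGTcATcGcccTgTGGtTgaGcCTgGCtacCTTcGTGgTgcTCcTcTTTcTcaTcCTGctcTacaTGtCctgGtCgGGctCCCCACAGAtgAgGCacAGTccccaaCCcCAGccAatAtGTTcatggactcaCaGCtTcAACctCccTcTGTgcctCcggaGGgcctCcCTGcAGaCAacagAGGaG
Mrap2: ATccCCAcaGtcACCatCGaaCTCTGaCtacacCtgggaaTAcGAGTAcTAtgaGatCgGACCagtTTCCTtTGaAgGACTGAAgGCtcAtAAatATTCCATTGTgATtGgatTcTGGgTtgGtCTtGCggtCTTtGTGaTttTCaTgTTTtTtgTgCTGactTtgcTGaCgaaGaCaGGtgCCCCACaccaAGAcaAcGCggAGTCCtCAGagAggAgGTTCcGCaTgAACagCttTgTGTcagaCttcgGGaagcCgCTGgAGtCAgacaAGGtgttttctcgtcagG
Of 356 aligned bases 190 (53.4%) were identical, and the longest identical run was 10 bases. The gene has 4 annotated transcripts, 1 of them labelled protein-coding, and values per gene do not tell them apart. In the coding transcript the 384 coding bases lie in 3 exons, at 90738324 to 90738669, 90747524 to 90747623 and 90749231 to 90749785.

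Mrap was higher in each of the 3 Mc4r KO hearts than in each of the 3 WT hearts. The counts were 72, 82 and 93 reads in WT replicates 1, 2 and 3 and 138, 196 and 151 reads in KO replicates 1, 2 and 3. In FPKM, the levels were 3.23, 3.61 and 3.45 in WT (mean 3.43 ± 0.192, SD, n = 3) and 5.62, 8.16 and 5.95 in KO (mean 6.58 ± 1.38, SD, n = 3). The groups did not overlap, and KO replicate 2 was the highest library. The counting intervals did not overlap either, since the highest upper limit in WT was 4.48 FPKM and the lowest lower limit in KO was 4.72 FPKM (95%, exact Poisson). Over all 6 libraries the mean of 5.01 FPKM placed Mrap at rank 5280 of the 14155 detected protein-coding genes.

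**Figure D2:**
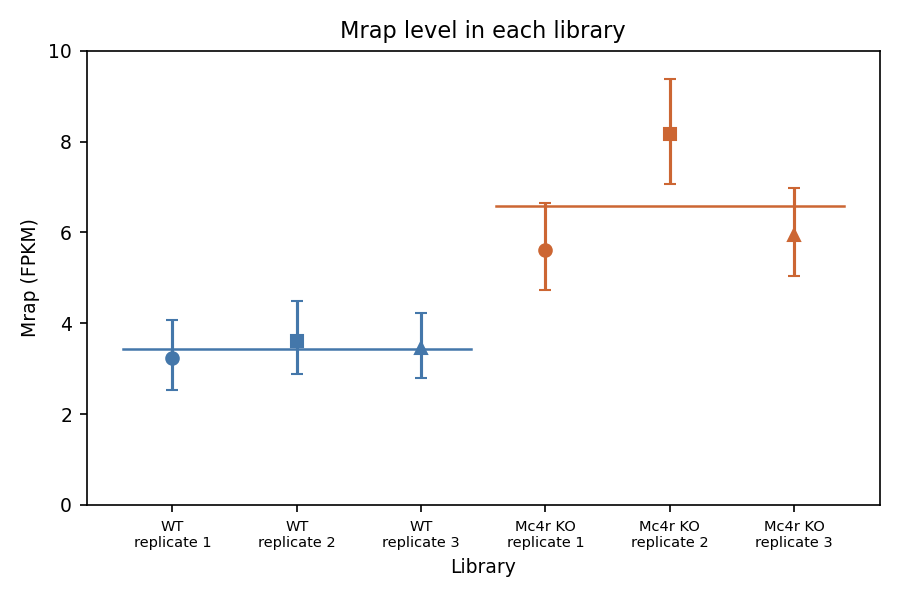
Mrap level in FPKM (y axis) in each library (x axis), with 95% Poisson counting intervals as bars and the group means as horizontal lines. The WT libraries lie at 3.23 to 3.61 FPKM and the Mc4r KO libraries at 5.62 to 8.16 FPKM.

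The ratio of the KO and WT means was 1.92. In the fit over 18035 genes the log2 fold change of Mrap was 0.90 with a standard error of 0.15 and a 95% interval of 0.54 to 1.26, and the adjusted p was 0.0579 (limma, Benjamini-Hochberg), which misses the threshold of 0.05. Mrap stood at rank 172 of all genes by p. The exact permutation test gave p = 0.1, two-sided, the smallest that 3 against 3 mice allow. A call required that the adjusted p lay under 0.05 and that the log2 fold change passed 0.75 in size. By this rule, 0 of the 3 melanocortin genes tested (Mrap, Pomc and Agrp) were called, beside 83 of all genes (0.460%). At an unadjusted p under 0.05 there were 3761 genes. Groups did not overlap for 1 of the 3, Mrap, beside 26.4% of all genes tested in either direction. Every KO library was above every WT library in 14.1% of all genes, so this order alone is a common pattern in these libraries.

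The direction of the Mrap difference was the same under 21 alternative settings, but the call was not. Every KO value was above every WT value, so leaving out a library or changing the pseudocount, filter or weights could hardly reverse the direction. The shared direction was thus largely fixed in advance. Mrap passed both thresholds under 5 of them, which were a filter at a mean of at least 1 FPKM (adjusted p = 0.0401), array weights (0.0345), limma voom on the recovered reads (0.0328), protein-coding genes only (0.0297) and without WT replicate 3 (0.0322), all from limma. In these 5 settings 147 to 726 of all genes were called, against 83 in the main fit. Under the 21 alternatives the log2 fold change of Mrap was between 0.71 and 1.09. The lowest value came from scaling by the FPKM outside the mitochondrial chromosome. That scaling moved the median of all genes from -0.01 to -0.19, and relative to this median the Mrap difference was 0.90, against 0.91 in the main fit. In the 3 libraries with Myl7 under 1 FPKM (1 WT and 2 KO) the difference was 1.09 with an interval of 0.02 to 2.17 (limma, adjusted p = 0.247, the lone WT library being assumed to vary like the KO libraries). This subset was chosen after seeing the data.

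**Figure D3:**
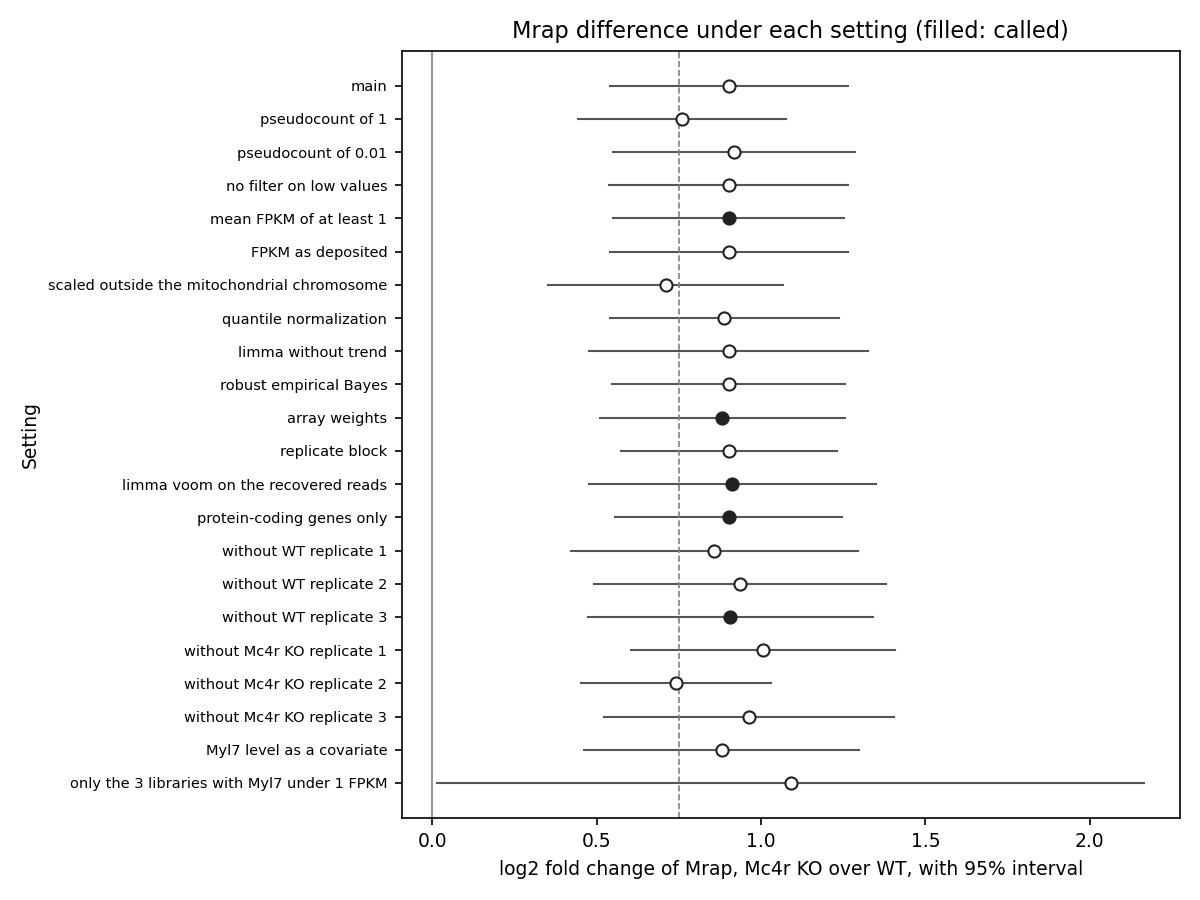
Log2 fold change of Mrap, Mc4r KO over WT (x axis, points, with 95% intervals as lines), in the main fit and under 21 alternatives (y axis). Filled points passed both thresholds, the dashed line is the fold threshold of 0.75, and all estimates are above 0, from 0.71 to 1.09.

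Levels per gene length can be compared between the members. In each library Mrap was at least 23.7-fold above the Mc2r limit and at least 34.3-fold above that of Mrap2, taking 3 reads for the lower gene. For Mc4r the same bound was at least 41.9-fold. The order of levels was Mrap first, then Pomc (mean 0.176 FPKM) and Agrp (mean 0.134 FPKM), whose libraries overlap, and the other 7 genes lay under the limit of 3 reads in all 6 libraries. The order among those 7 could not be set. The 9 genes other than Mrap together had 1, 0 and 14 reads in WT replicates 1, 2 and 3 and 4, 17 and 7 reads in KO replicates 1, 2 and 3. The low genes were thus most often read in WT replicate 3 and KO replicate 2.

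Mrap is known from the adrenal cortex and from fat, so genes of both were read beside it. Of 7 adrenal cortex genes 1 was detected. This was Star, the carrier of cholesterol into mitochondria, at 1.04 ± 0.337 FPKM in WT and 0.782 ± 0.141 FPKM in KO (SD, n = 3 each), with overlapping groups. The steroid hydroxylases Cyp21a1, Cyp11b1 and Cyp11b2 had 0 reads in all libraries, and Cyp11a1 had at most 3 reads in any library. Of 11 adipocyte genes 4 were detected. The defining genes were at or near 0, with 5 reads of Adipoq and 11 of Plin1 over all 6 libraries and 0 reads of Lep, Retn and Ucp1. Fabp4, which endothelium also expresses, was at 114.0 ± 22.2 and 126.6 ± 6.93 FPKM in WT and KO (SD, n = 3 each), and it made up most of the summed adipocyte level of 108 to 151 FPKM in WT and 145 to 157 FPKM in KO. The 4 tested adipocyte genes went in both directions, with a median log2 fold change of -0.52. Of these 4, 0 were called, beside 0.460% of all genes tested. Cidea, a lipid droplet protein of brown fat, was at 12.1, 14.7 and 15.7 FPKM in WT replicates 1, 2 and 3 and 19.3, 27.0 and 26.2 FPKM in KO replicates 1, 2 and 3, without overlap (log2 fold change 0.76, limma, adjusted p = 0.0791). Cfd, the secreted protease adipsin, did not overlap either, in the opposite direction. It was at 0.385, 0.831 and 0.573 FPKM in WT and 0.210, 0 and 0 FPKM in KO replicates 1, 2 and 3 (-2.21, limma, adjusted p = 0.10). These were only 5, 11 and 9 reads in WT and 3, 0 and 0 reads in KO. With KO replicates 2 and 3 at 0, the fold of Cfd depends on the pseudocount. Its KO mean (0.0699 FPKM) lay under the filter of 0.1 FPKM, which Cfd passed only through WT. Groups did not overlap for 26.4% of all genes tested. Car3, a carbonic anhydrase, overlapped, with 0.173 to 0.738 FPKM in WT and 0 to 0.270 FPKM in KO (-1.21, limma, adjusted p = 0.317). As these are bulk samples, fewer cells of a type and less RNA per cell cannot be told apart. The summed cardiomyocyte level also did not overlap between the genotypes. As a share of the FPKM outside the mitochondrial chromosome it was 5.84% to 7.11% in WT and 6.89% to 7.12% in KO, which overlap, and with that scaling the Mrap difference was 0.71, as given above. The mitochondrial share itself was higher in each WT library than in each KO library. Other cell types varied as well. The summed red cell genes were at 859 to 6344 FPKM in WT and 620 to 1651 FPKM in KO. The leukocyte genes were at 11.3 to 27.8 and 10.1 to 13.6 FPKM and the skeletal muscle genes at 51.3 to 239 and 234 to 556 FPKM, with overlap in all 3 lists. Acta1 made up most of the skeletal muscle sum, at 49.7 to 238 FPKM in WT and 233 to 555 FPKM in KO. The skeletal muscle myosins Myh1, Myh2 and Myh4 had at most 3 reads in any library. The fibroblast genes Dcn, Lum and Pdgfra were lower in each KO library than in each WT library. Dcn, for example, was at 109 to 125 FPKM in WT and 77.1 to 87.0 FPKM in KO (log2 fold change -0.53, limma, adjusted p = 0.0579). Of the same list Col1a1 (0.44), Acta2 (0.43) and Myh11 (0.40) had a positive log2 fold change and Tagln (-0.03) a small negative one, all with overlap. Groups did not overlap for 3 of the 7 fibroblast and smooth muscle genes, beside 26.4% of all genes tested, and their summed level overlapped. The part of these cell types in the Mrap difference was not tested.

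**Figure D4:**
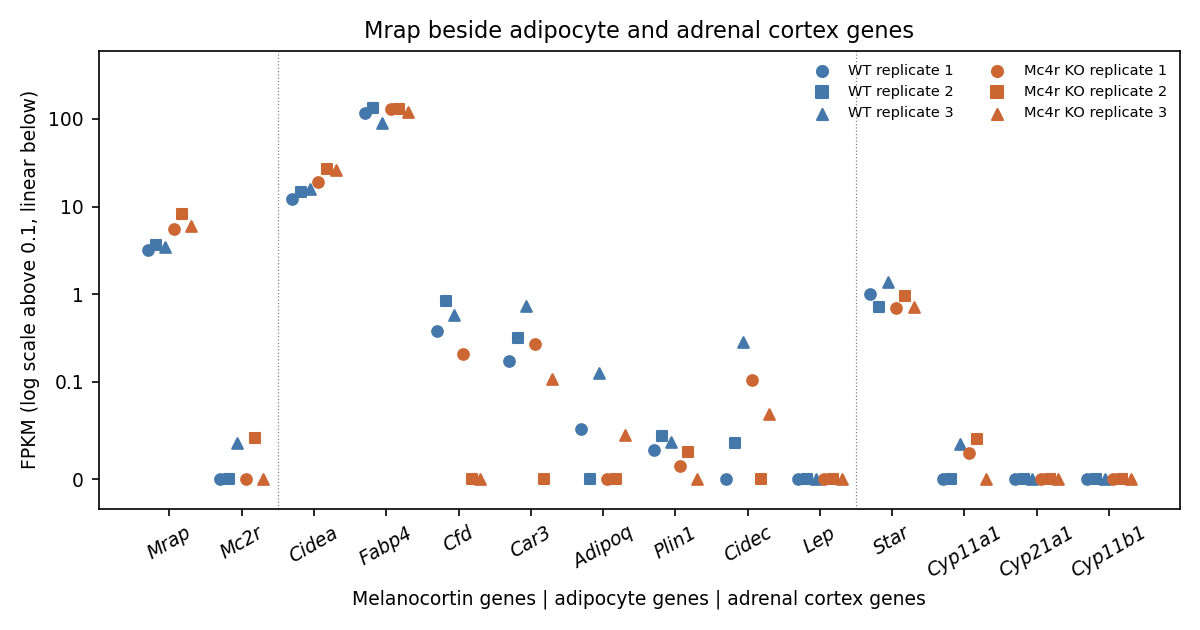
FPKM (y axis, log scale above 0.1 and linear below) of Mrap and Mc2r, 8 adipocyte genes and 4 adrenal cortex genes (x axis) in each library, blue for WT and orange for Mc4r KO. Mrap and Cidea are higher in the 3 KO libraries than in the 3 WT libraries. Cfd is lower, with at most 11 reads in a library, and Lep, Cyp21a1 and Cyp11b1 are at 0 throughout.

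The genes most like Mrap across the 6 libraries were Inpp5j, Emc6 and Tnfrsf12a. They had the highest Pearson correlation with Mrap in log2(FPKM + 0.1) among 10219 protein-coding genes with a mean of at least 1 FPKM. Inpp5j, an inositol polyphosphate phosphatase, had r = 0.998, with 3.22, 3.49 and 3.37 FPKM in WT and 5.38, 7.11 and 5.69 FPKM in KO replicates 1, 2 and 3. Emc6, a subunit of the ER membrane protein complex, had r = 0.996, with 30.8 to 31.4 FPKM in WT and 39.6 to 46.9 FPKM in KO. Tnfrsf12a, the receptor of the cytokine TWEAK, had r = 0.995, with 6.31 to 7.24 FPKM in WT and 22.0 to 40.4 FPKM in KO. In all 3 genes KO replicate 2 was the highest library, as it was for Mrap. These correlations describe genes that share the libraries and the difference between groups, and they were selected as the highest of many.

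**Figure D5:**
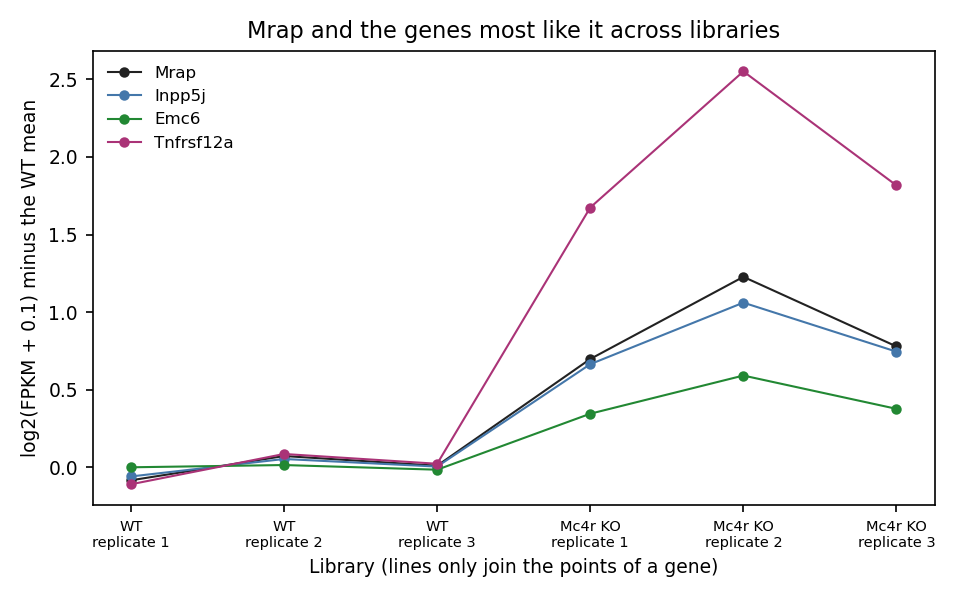
Log2(FPKM + 0.1) minus the WT mean (y axis) of Mrap, Inpp5j, Emc6 and Tnfrsf12a in each library (x axis), with lines that only join the points of a gene. All 4 genes are lowest in WT and highest in Mc4r KO replicate 2.

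In contrast with the receptors, the machinery downstream of them was expressed in heart. All 22 genes of Gs and cAMP signalling were detected. Of the 21 tested, 0 were called in either direction, beside 0.460% of all genes tested. At that share a list of this size would seldom hold a call. A positive log2 fold change was found for 15 of the 21, beside 8793 of 18035 genes. The median was 0.11, beside -0.01 over all genes. Scaled outside the mitochondrial chromosome, the median of this list was -0.08, beside -0.19 over all genes. Every KO library was above every WT library for 4 of the 21, Adcy5, Adcy6, Adcy8 and Gnas, beside 14.1% of all genes. Adcy8 was low, with means of 0.0758 FPKM in WT and 0.212 FPKM in KO. It passed the filter of 0.1 FPKM only through KO. The groups did not overlap for 7 of the 21 in either direction, beside 26.4% of all genes. The 3 lower in KO were the transcription factor Creb1 and the protein kinase A subunits Prkacb and Prkar1b. For Prkar1b this was a near tie of WT replicate 1 (0.5584 FPKM, 30 reads) and KO replicate 1 (0.558 FPKM, 33 reads). The catalytic and regulatory subunits of protein kinase A, Prkaca and Prkar1a, had the highest levels. Prkar1a was at 101.7 ± 7.16 and 105.5 ± 4.01 FPKM in WT and KO, and Prkaca at 101.7 ± 11.6 FPKM in WT and 115.6 ± 2.89 FPKM in KO (SD, n = 3 each, limma, adjusted p = 0.334). Gnas, which encodes the stimulatory G protein itself, was at 2.77, 2.53 and 5.77 FPKM in WT replicates 1, 2 and 3 and at 7.18, 6.86 and 6.36 FPKM in KO replicates 1, 2 and 3. The groups did not overlap, WT replicate 3 was close to the KO libraries, and the log2 fold change was 0.96 with a standard error of 0.29 (limma, adjusted p = 0.134). Of its exonic bases 21.96% are shared with Nespas or Gm20721 on the opposite strand.

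The genes that cut and modify POMC were present in part. Of 10 genes for POMC processing and MSH degradation 6 were detected. Of the 6 tested 0 were called, beside 0.460% of all genes tested. The median log2 fold change of the 6 was 0.04, beside -0.01 over all genes. With the scaling outside the mitochondrial chromosome it was -0.15, beside -0.19 over all genes. With quantile normalization it was -0.10, beside -0.01 over all genes. Groups did not overlap for 2 of the 6, Furin and the lysosomal protease Ctsl, beside 26.4% of all genes tested. Both were higher in KO (for Ctsl a log2 fold change of 0.17, and of -0.03 at the lowest among the 21 alternatives). The convertase Pcsk1, which makes ACTH from POMC, had 1, 1 and 2 reads in WT and 2, 4 and 2 reads in KO replicates 1, 2 and 3, and Pcsk2, which acts after it, had 0 reads throughout. Cpe, which trims the cut peptides, was at 88.8 ± 8.25 FPKM in WT and 79.8 ± 4.24 FPKM in KO. Pam, which amidates them, was at 54.8 ± 10.4 and 51.3 ± 1.17 FPKM (SD, n = 3 each). Furin, a convertase of many secreted proteins, was at 8.33 ± 1.24 FPKM in WT and 14.5 ± 1.28 FPKM in KO, without overlap (log2 fold change 0.80, standard error 0.13, limma, adjusted p = 0.0535). It was called under 6 of 21 alternatives. In these 6, 98 to 726 of all genes were called, against 83 in the main fit.

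Genes that modify the receptors or the agouti proteins were detected in 10 of 11 cases. Of the 10 tested 0 were called, beside 0.460% of all genes tested. The median log2 fold change of the 10 was 0.10, beside -0.01 over all genes. With the scaling outside the mitochondrial chromosome it was -0.09, beside -0.19 over all genes. Groups did not overlap for 3 of the 10, beside 26.4% of all genes tested. The receptor kinases Grk2 and Grk5 were higher and Atrnl1 was lower in KO. Mgrn1, which encodes the ubiquitin ligase mahogunin, was at 39.5 ± 3.76 FPKM in WT and 40.8 ± 0.279 FPKM in KO. Corin, the protease that limits agouti in skin and activates natriuretic peptides in heart, was at 30.4 ± 5.10 and 34.1 ± 7.23 FPKM (SD, n = 3 each). Grk5, a kinase that desensitizes G protein-coupled receptors, was at 7.97 ± 0.532 FPKM in WT and 14.0 ± 2.34 FPKM in KO, without overlap (log2 fold change 0.79, standard error 0.13, limma, adjusted p = 0.0562), and was called under 5 of 21 alternatives. These 5 were among the 6 for Furin, all with more of all genes called than in the main fit. Gnas, Furin and Grk5 were singled out after their values were seen.

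Of 12 genes of the hypothalamic circuit 4 were detected, and 5 had 0 reads in all libraries. The 3 tested had a negative log2 fold change, with a median of -0.50. Of these 3, 0 were called, beside 0.460% of all genes tested. Over all genes tested, groups did not overlap in either direction for 26.4%. For 2 of the 3 genes here, each KO library was below each WT library. These were the neurotrophin Bdnf and the leptin receptor Lepr, at 0.711 to 1.01 FPKM in WT and 0.504 to 0.607 FPKM in KO (log2 fold change -0.52, limma, adjusted p = 0.206). The insulin receptor Insr was at 12.4 ± 2.39 FPKM in WT and 11.0 ± 0.916 FPKM in KO, and Bdnf at 1.26 ± 0.275 and 0.848 ± 0.0769 FPKM (SD, n = 3 each, limma, adjusted p = 0.599 and 0.222).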

How the data were processed

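Polyadenylated RNA from the hearts of 3 WT and 3 Mc4r KO mice was sequenced. Groups were taken from the labels. The labels call the tissue heart or muscle, and the study's text speaks of left ventricle. Per the submitters' processing notes the reads were handled with CASAVA and HISAT2 (version 2.0.5) on mm10, and the study's methods name featureCounts. The values used are FPKM per gene, as deposited by the authors for each library. Multiplied by gene length, 100% of these FPKM were whole multiples of a step that is fixed within each library (tolerance 0.1 of a read), and this gave back the reads of each gene.

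The main test was limma (version 3.58.1, R 4.3.3) with trend on log2(FPKM + 0.1), two-sided, with genes of a mean of at least 0.1 FPKM. It used median-of-ratios scaling and Benjamini-Hochberg adjustment over 18035 genes. All scaling factors were 1, so the scaling left the deposited values as they were. Single genes were compared by an exact permutation test (scipy 1.17.1), and other choices of pseudocount, filter, scaling, weights, model and libraries were tried. Gene annotation and sequences came from GENCODE M21, which held 99.77% of the identifiers. The release the authors used is not given in the sources used here.

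The members and gene lists were chosen with earlier results of these data known. The text names the 10 melanocortin genes, the 3 genes most correlated with each member of at least 10 reads per library on average (Mrap), called genes or otherwise the 2 most abundant genes of each list, and genes that overlap a member, beside marker genes and a few genes singled out by their values. The intervals cover the counting error of reads only. Reads of PCR copies are not independent molecules, so these intervals can be too narrow.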

Additional observations from a re-analysis of the deposited data

How the results depend on the processing

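The number of melanocortin genes called, 0, was 1 (Mrap) with a mean of at least 1 FPKM, array weights, limma voom on the recovered reads and protein-coding genes only, and 0 to 1 when 1 library was left out (1 without WT replicate 3). It stayed at 0 under the other alternatives. The genes detected, 2, were 1 with at least 10 reads, with at least 1 read in every library or with a mean of at least 1 FPKM, 3 with a mean of at least 0.1 FPKM (Agrp in addition), and 2 whichever library was left out. Of 41 pathway genes tested, 0 were called in the main fit. The number was 2 of 32 with a mean of at least 1 FPKM, 1 with robust empirical Bayes, 3 with array weights, 3 with limma voom and 2 with protein-coding genes only. Leaving out 1 library gave 0 to 3 pathway genes, with 3 without WT replicate 3. The pathway genes called were Furin, Grk5 or Gnas, all higher in KO. In each setting with such a call, more of all genes were called than in the main fit. Of all 18035 genes tested, 83 were called in the main fit (57 higher and 26 lower in KO). The number was 44 with a pseudocount of 1, 22 of 26539 without a filter and 147 of 11297 with a mean of at least 1 FPKM. Scaling outside the mitochondrial chromosome gave 41 (16 higher and 25 lower), quantile normalization 49, no trend 21 and robust empirical Bayes 98. Array weights gave 435, limma voom 317 and protein-coding genes only 204 of 13546. Leaving out 1 library gave 7 to 726 genes, with 726 of 17966 without WT replicate 3. With the replicate block it was 11, and Mrap kept 0.90 (limma, adjusted p = 0.12). Libraries of the same number did not deviate together (correlations of -0.14, 0.01 and -0.08 over 11297 genes), and none correlated best with its own number, so the number was not taken as a pairing. With 2 alternatives added after seeing the data, Myl7 as a covariate gave 31 genes and the 3 libraries with low Myl7 gave 0 (limma, 3604 at an unadjusted p under 0.05). Left-out libraries moved the log2 fold change of Mrap between 0.74 (without KO replicate 2) and 1.0, that of Pomc between 0.66 and 1.72 and that of Agrp between 0.34 and 1.32. Without KO replicate 2, Agrp did not pass the filter and has no value. The cause of these changes was not tested. For the receptors, Asip and Mrap2 the depth sets the limit, and no difference between genotypes could be read.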

Other observations

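Genes of pigment cells, where MC1R acts, were also read. Of 8 melanocyte genes 4 were detected. Of the 4 tested (Dct, Pmel, Mitf and Mlana) 0 were called, beside 0.460% of all genes tested. The median log2 fold change of the 4 was -0.02. Groups did not overlap for 2 of the 4, Dct and Mitf, beside 26.4% of all genes tested. Dct, an enzyme of melanin synthesis, had 23, 31 and 7 reads in WT replicates 1, 2 and 3 and 76, 165 and 67 reads in KO replicates 1, 2 and 3. The groups did not overlap, with 0.238 ± 0.152 FPKM in WT and 1.13 ± 0.622 FPKM in KO (SD, n = 3 each), and the difference did not pass the test (log2 fold change 1.87, limma, adjusted p = 0.108). Mitf, the melanocyte transcription factor, which other cells also express, was at 7.83 to 8.77 FPKM in WT and 6.95 to 7.83 FPKM in KO (-0.19, limma, adjusted p = 0.299). Its groups were apart only by a near tie, with 7.8278 FPKM in WT replicate 3 and 7.8265 FPKM in KO replicate 3. Mlana (-2.08) and Pmel (0.15) overlapped between the groups, and Mlana was highest in WT replicate 3, at 5.56 FPKM. The summed level of the melanocyte list was 9.32 to 13.6 FPKM in WT and 8.70 to 9.29 FPKM in KO. Mc1r had 1 read in all beside these genes.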
